A study of Mus musculus with 8 samples.

Results

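The genes described here encode the intracellular part of cytokine signalling: the JAK kinases, the STAT transcription factors, the SOCS and PIAS inhibitors, the tyrosine phosphatases, the adaptors and ubiquitin ligases that act on the same complexes, and the PIM kinases. They were chosen by symbol as 36 named mouse genes in 7 roles, and all 36 were found by their Ensembl identifiers among the 55487 gene rows of the deposited count tables. The libraries come from mouse haematopoietic stem cells (HSCs) that were sorted into lysis buffer and sequenced in bulk by Smart-seq2, a full-length cDNA method for few cells. The 4 miR652-KD libraries carry a knockdown of the microRNA miR-652 and the 4 NTC libraries a non-target control. The labels used here do not state how the knockdown was made, the strain, age or number of mice, the sort markers, or whether each replicate is another animal. Every p-value below thus reflects library-to-library spread alone, some of which may be technical.

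Cytokine receptors of the haematopoietin and interferon classes have no kinase activity of their own. When a ligand joins the receptor chains, the JAKs bound to them phosphorylate the receptor and then the STATs, which pair, enter the nucleus and switch on target genes. Among those targets are the genes for CIS and the SOCS proteins, which feed back on receptor and kinase, and the PIM kinases, which support survival and growth. Transcript levels report the RNA of these genes and of target genes. They measure neither the amounts of the proteins nor the phosphorylation that carries the signal.

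The knockdown is directed at a microRNA with 2 mature arms, shown here from RefSeq (GRCm38.p6, chromosome X, plus strand, 142739020 to 142739043 for the 5p arm and 142739060 to 142739080 for the 3p arm), with the seed, bases 2 to 8, in capitals, because the seed is what pairs with target transcripts.
mmu-miR-652-5p: cAACCCUAggagggggugccauuc
mmu-miR-652-3p: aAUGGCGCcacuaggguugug
The Mir652 hairpin gene had 5, 0, 0 and 0 counts in miR652-KD replicates 1 to 4, against 1, 0, 0 and 2 counts in NTC replicates 1 to 4. These libraries do not measure the mature arms, so the counts do not check the knockdown.
A match to the 3p seed (GCGCCAT) was in the longest annotated 3′ UTR of 0 of the 36 members and of 2.58% of the 11625 tested genes that have an annotated one. A match to the 5p seed (TAGGGTT) was in 2 of the 36, Socs6 and Socs7, against 8.61% of those tested genes. The Socs7 match lies in the 3′ UTR of the gene on chromosome 11 (mm10, plus strand, chr11:97396764-97396792) and is shown with its flanks, the match in capitals.
Socs7 site: ctggcggggacTAGGGTTcgctttccact
A match is a description of sequence and not a measured site. Socs6 had a log2 difference of -0.36 and Socs7 one of -0.43 (miR652-KD over NTC, edgeR adjusted p = 0.995 and 0.989), and the groups overlapped in both. Without miR652-KD replicate 2 the value of Socs6 was -0.12, and without NTC replicate 4 that of Socs7 was -0.03.

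Counts in genes ran from 14677644 to 19894821 per miR652-KD library and from 14017632 to 16763709 per NTC library. All 11 HSC markers checked (Kit, Ly6a, Procr, Slamf1, Mecom, Hlf, Hoxa9, Meis1, Gata2, Tek and Fgd5) had counts in all 8 libraries, with a summed level of 2532 to 2717 CPM in miR652-KD and 2290 to 2951 CPM in NTC. CPM here are counts per 1000000 counts in genes. Single markers parted without overlap in opposite directions, with Kit at 380.0 to 435.4 CPM in miR652-KD and 440.0 to 663.9 CPM in NTC, and Ly6a at 316 to 490 CPM in miR652-KD and 240 to 296 CPM in NTC. Markers of other cells varied more. The 10 neutrophil markers summed to between 118 and 4032 CPM in miR652-KD and between 171 and 13720 CPM in NTC, and different genes carried the sums. The late granule gene Ngp was at 2413 CPM in NTC replicate 3 and 3623 CPM in NTC replicate 4, with a maximum of 24.7 CPM elsewhere. The early granule gene Elane was at 1920, 4.32, 0.101 and 9.87 CPM in miR652-KD, against 0.471, 983, 1311 and 2535 CPM in NTC. The 10 erythroid markers summed to 1798 to 4518 CPM in miR652-KD and 4191 to 7845 CPM in NTC, and Car2 alone stood at 1760 to 2216 CPM in miR652-KD and 1298 to 2169 CPM in NTC. The globin gene Hba-a1 had 2.18, 37.2, 65.8 and 1239 CPM in miR652-KD, against 1013, 2575, 1247 and 2298 CPM in NTC. Alas2, for haem synthesis, did not overlap, at 1.70 to 17.3 CPM in miR652-KD and 42.2 to 59.2 CPM in NTC, and neither did the globin gene Hbb-bt, at 10.0 to 124 CPM and 156 to 380 CPM. The T cell genes Cd3e and Cd8a were at 0 in every library. Summed macrophage and dendritic cell markers stood at 821 to 1055 CPM in miR652-KD and 748 to 2313 CPM in NTC. Lyz2 carried most of this sum, at 748 to 944 CPM and 681 to 2184 CPM. Cd68 and Csf1r parted without overlap, both higher in miR652-KD. Cd68 was at 39.2 to 60.1 CPM against 14.5 to 31.8 CPM in NTC, and Csf1r at 0.352 to 8.18 CPM against 0. The other genes of this list overlapped. B and T cell markers summed to 174.5 to 392.2 CPM in miR652-KD and 207.8 to 536.2 CPM in NTC. Megakaryocyte markers summed to 284 to 455 CPM and 271 to 462 CPM. Mast cell and basophil markers summed to 2.16 to 26.6 CPM and 12.2 to 35.8 CPM. Among these last, Cpa3 did not overlap, at 2.16 to 8.45 CPM in miR652-KD and 12.2 to 33.7 CPM in NTC. The part of these other cells in the values below was not tested. In such bulk libraries fewer cells of a type and less RNA per cell cannot be told apart.

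All 36 members had enough counts to be tested, and 0 of them passed the threshold, an adjusted p below 0.05 over all 14360 genes tested (edgeR quasi-likelihood test, Benjamini-Hochberg adjustment). The same threshold was passed by 0.0418% of all genes tested, 0.0279% higher in miR652-KD and 0.0139% lower. Of the members 3 had an unadjusted p below 0.05 (8.33%), namely Socs2, which was higher, and Pim1 and Pias1, which were lower, against a background of 5.99% (2.9% higher and 3.09% lower). Library values did not overlap between the groups for 2 members (5.56%), Pim1 and Pias1, both lower, against 4.5% of all genes tested (2.35% higher and 2.15% lower). Fitted levels were higher in miR652-KD for 19 members and lower for 17, against 49.5% higher among all genes tested. The median log2 difference was 0.01 over the members and 0.00 over all genes tested, so the shares and medians of the members lay near the background.

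**Figure D1:**
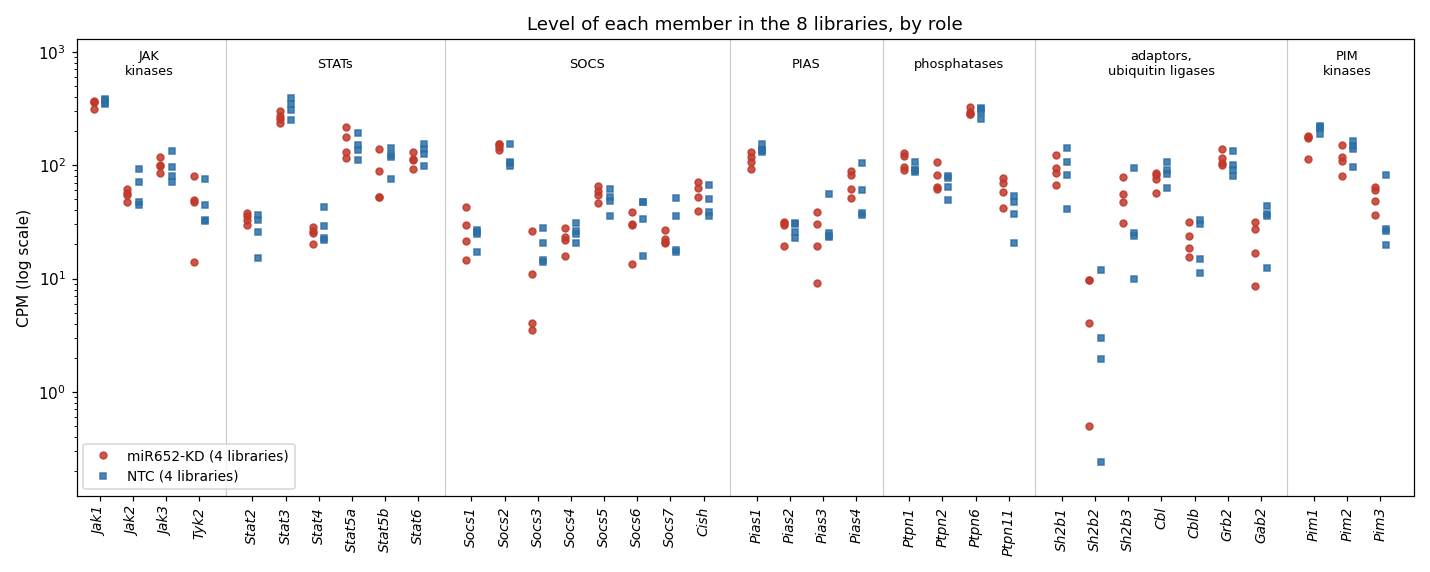
Level of each of the 36 members in CPM (log scale), by role, with 4 miR652-KD libraries as circles and 4 NTC libraries as squares. The circles and squares of a gene overlap except for Pim1 and Pias1, and Sh2b2 spans from 0.239 to 11.8 CPM.

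Levels of different genes were compared per exon length, in transcripts per 1000000 (TPM). The highest of the 36 was Ptpn6, which encodes the phosphatase SHP-1 that damps signalling in blood cells, at 280 ± 19.5 TPM in miR652-KD and 280 ± 32.0 TPM in NTC (SD, n = 4 each). Its range over the 8 libraries, 238 to 315 TPM, lay above that of every other member. The next in order were Pim1 (146 TPM on average over the 8 libraries), Jak1 (131 TPM), Pim2 (119 TPM), Grb2 (97.7 TPM) and Stat3 (81.8 TPM). Below Ptpn6, each gene overlapped in range with the next in the order (34 of 35 neighbouring pairs), so the order within stretches of it is not fixed by these data. The lowest was Sh2b2 at 2.89 ± 2.18 TPM in miR652-KD and 2.06 ± 2.48 TPM in NTC (SD, n = 4 each). Averages of at least 10 TPM were reached by 31 members.

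**Figure D2:**
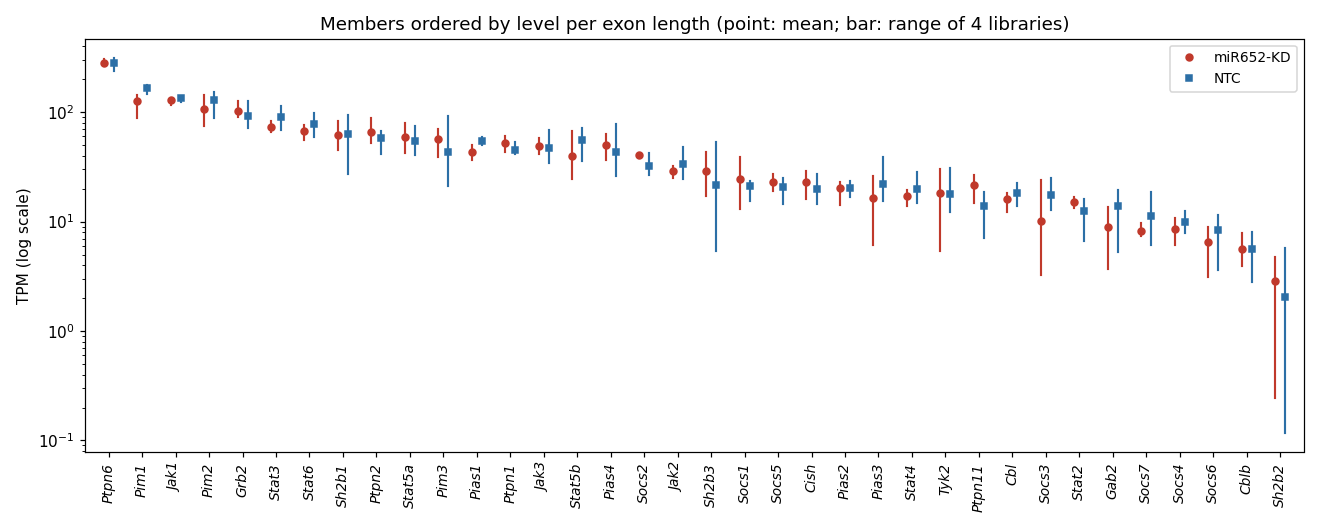
Members ordered by mean TPM over the 8 libraries (log scale), with the mean as a point and the range of 4 libraries as a bar, miR652-KD left of NTC. Ptpn6 stands above the rest at 238 to 315 TPM over all libraries, and the bars of later neighbours overlap.

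Among the 4 kinases that start the signal, Jak1 was the most abundant and the steadiest. Jak1, which serves interferon, interleukin-6 type and common gamma chain receptors, had 357, 316, 363 and 370 CPM in miR652-KD replicates 1 to 4, against 354, 386, 344 and 376 CPM in NTC replicates 1 to 4. The values of the groups lie among each other, and the log2 difference of -0.05 had a 95% interval of -0.26 to 0.15 (edgeR adjusted p = 0.999). Per length, Jak1 made up 57.1% ± 2.21 of the summed TPM of the 4 kinase genes in miR652-KD and 57.8% ± 3.96 in NTC (SD, n = 4 each). Jak2, a kinase of erythropoietin and interleukin-3 type receptors, had 54.2, 47.4, 62.0 and 56.9 CPM in miR652-KD, against 44.9, 71.1, 46.9 and 92.2 CPM in NTC. NTC replicate 4 was the highest and NTC replicate 1 the lowest of the 8, and the log2 difference was -0.21 (SE 0.25). It was 0.03 without NTC replicate 4 and -0.35 without NTC replicate 1. Jak3, the partner of the common gamma chain, had 85.03 to 117.7 CPM in miR652-KD and 71.3 to 133 CPM in NTC, with a log2 difference of 0.08 (SE 0.19). Part of its annotated exon sequence (7.55%) is shared with Insl3 on the same strand.

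Tyk2, a kinase of interferon and interleukin-12 receptors, was the least even of the JAK genes. It had 79.9, 47.6, 14.1 and 49.2 CPM in miR652-KD, against 76.1, 44.2, 32.5 and 32.1 CPM in NTC. Replicate 1 was highest within both groups, and miR652-KD replicate 3 was lowest of all. Its log2 difference was 0.06 with an interval of -0.98 to 1.10. Of its exon bases, 8.07% are shared with the antisense gene 1700084C06Rik.

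The 6 STAT genes had log2 differences from -0.46 for Stat5b to 0.31 for Stat2, 2 above 0 and 4 below, with 0 past the threshold. Stat3, the main effector of interleukin-6 and granulocyte colony-stimulating factor receptors, had the highest counts among them. Its values were 273, 253, 302 and 235 CPM in miR652-KD, against 391, 249, 347 and 304 CPM in NTC. NTC replicates 1, 3 and 4 stood above all miR652-KD libraries, and NTC replicate 2 fell among them. The log2 difference was -0.27 (SE 0.14, edgeR adjusted p = 0.86), with an interval of -0.58 to 0.03.

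Stat5a and Stat5b, which are close paralogues, act downstream of many haematopoietic cytokines and lie next to Stat3 on chromosome 11 (mm10, 100780731 to 100850724 for Stat5b, 100859351 to 100885169 for Stat5a and 100885098 to 100939540 for Stat3). Reads that fit both paralogues could be split between them or lost by the counting. Stat5a had 115, 216, 129 and 177 CPM in miR652-KD, against 194, 151, 135 and 110 CPM in NTC, fully interleaved. Stat5b had 52.2, 140, 88.1 and 52.5 CPM in miR652-KD, against 143, 118, 75.5 and 124 CPM in NTC. Replicates 1 and 4 of miR652-KD lay below all NTC libraries, while replicate 2 lay above all but NTC replicate 1. The log2 difference of Stat5b was -0.46 (SE 0.32, edgeR adjusted p = 0.956), and it was -0.83 without miR652-KD replicate 2, -0.29 without replicate 1 and -0.30 without replicate 4. Per length the paralogues were at 58.9 ± 17.5 TPM for Stat5a and 39.6 ± 19.9 TPM for Stat5b in miR652-KD, and at 55.0 ± 14.8 TPM and 55.1 ± 14.6 TPM in NTC (SD, n = 4 each).

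The other STAT genes overlapped between the groups. Stat6, which answers interleukin-4, had 93.4 to 130 CPM in miR652-KD and 98.4 to 155 CPM in NTC. Stat2, the partner in the type I interferon complex, was held within 30.0 to 37.8 CPM in miR652-KD and spread over 15.2 to 36.6 CPM in NTC. Stat4, which answers interleukin-12, had 20.3 to 28.3 CPM in miR652-KD and 21.9 to 42.5 CPM in NTC. Its exons share 26.7% of their length with the same-strand gene Gm28177, so its counts may be incomplete.

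**Figure D3:**
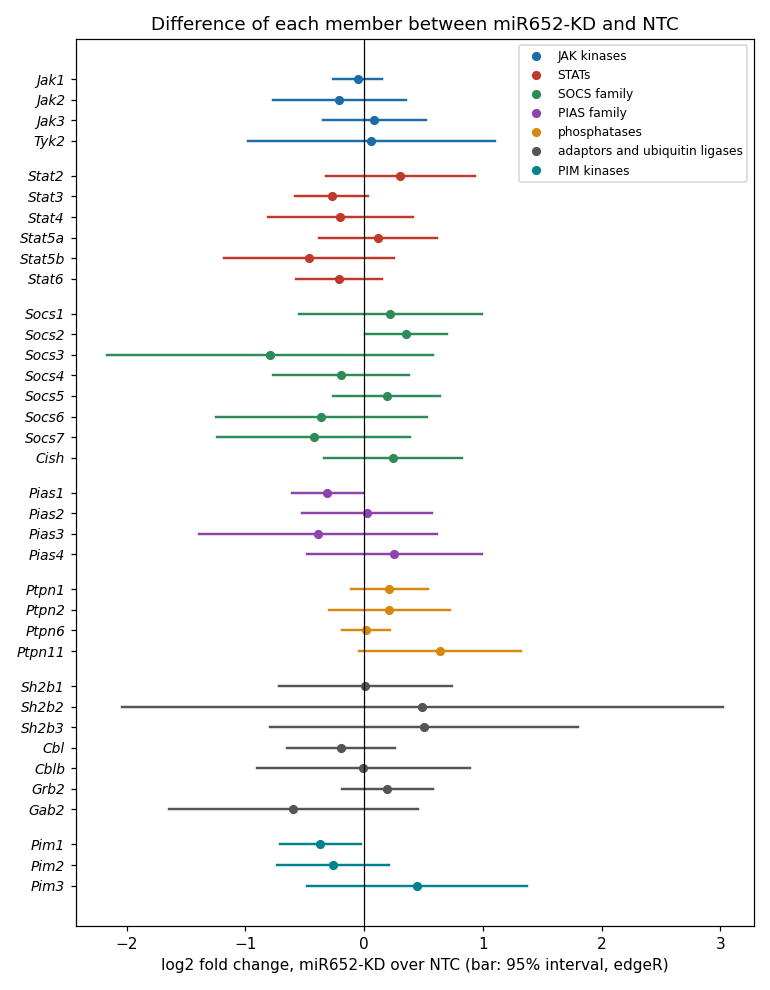
Log2 fold change of each member (miR652-KD over NTC) with its 95% interval from the edgeR fit, grouped by role. The interval takes in 0 for 33 of the 36 members, the exceptions being Pim1, Socs2 and Pias1, and 0 members passed the adjusted threshold.

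The SOCS family binds phosphorylated receptors or JAKs through an SH2 domain and recruits a ubiquitin ligase. Of its 8 genes, 4 had values above 0 and 4 below. Socs2, a target of STAT5 that restrains growth hormone and haematopoietic cytokine signalling, was the family member with the highest counts and the highest per-length level. It had 143, 137, 155 and 154 CPM in miR652-KD, against 107, 104, 153 and 98.3 CPM in NTC. NTC replicate 3 stood with the miR652-KD libraries, and the other 3 NTC libraries lay below all 4 of them. The means were 147 ± 8.39 CPM in miR652-KD and 115 ± 25.0 CPM in NTC (SD, n = 4 each). The log2 difference of 0.36 (SE 0.15, interval 0.01 to 0.70) did not pass over all genes (edgeR adjusted p = 0.832). Leaving out single libraries gave 0.29 to 0.52, the highest without NTC replicate 3.

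Cish, whose protein CIS is an inducible brake on STAT5-coupled receptors, had 52.7, 62.7, 39.6 and 70.4 CPM in miR652-KD, against 38.5, 35.7, 50.1 and 67.0 CPM in NTC. The values interleave, the log2 difference was 0.24 (SE 0.26; 0.11 without miR652-KD replicate 4 and 0.61 without NTC replicates 3 and 4), and 11.5% of the exon bases are shared with antisense genes. Socs3, the brake on interleukin-6 type and granulocyte colony-stimulating factor receptors, had 10.9, 3.53, 26.1 and 4.04 CPM in miR652-KD, against 20.8, 27.7, 14.6 and 14.1 CPM in NTC. Replicates 2 and 4 of miR652-KD were below 5 CPM, a level no NTC library reached, while replicate 3 was second highest of all 8. The log2 difference of Socs3 was the lowest of the 36, at -0.79, with an SE of 0.62 (edgeR adjusted p = 0.981). It was -1.64 without miR652-KD replicate 3, -0.49 without replicate 2 and -0.52 without replicate 4. Socs1, induced by interferons and acting on the JAKs directly, had 43.0, 21.6, 14.4 and 29.7 CPM in miR652-KD, against 24.6, 26.5, 17.2 and 25.5 CPM in NTC. Its direction rested on miR652-KD replicate 1, with a log2 difference of 0.22 over all libraries and -0.09 without it.

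Socs4 to Socs7 averaged 6.47 to 23.2 TPM in miR652-KD and 8.47 to 20.5 TPM in NTC. Socs5 was the highest of these, with 46.5 to 65.6 CPM in miR652-KD and 35.95 to 61.38 CPM in NTC. Socs7 was even in miR652-KD, at 20.4 to 26.8 CPM, and wide in NTC, at 35.6, 17.8, 17.1 and 51.8 CPM in replicates 1 to 4. Socs4 had 15.8 to 28.2 CPM in miR652-KD and 20.7 to 30.8 CPM in NTC. Socs6 had 13.3 to 38.3 CPM in miR652-KD and 15.9 to 47.7 CPM in NTC, with replicate 2 the lowest in each group.

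Cish, Socs1, Socs2, Socs3 and Pim1 are textbook STAT-induced genes, and their log2 CPM were compared over the 8 libraries in 10 pairs. Cish and Socs3 ran opposite to each other, with Pearson's r = -0.83 (exact permutation p = 0.0104, adjusted over the 10 pairs 0.104) and Spearman's rho = -0.86 (exact permutation p = 0.0107, adjusted 0.107). Neither passed after adjustment. Without the 2 libraries farthest from the Cish median, miR652-KD replicate 4 and NTC replicate 2, r was -0.70, and within the groups, as deviations from their means, it was -0.82. In the other 9 pairs r ran from -0.54 for Socs2 with Pim1 to 0.62 for Socs3 with Pim1 (exact permutation p from 0.109 to 0.611). Socs3 with Pim1 turned to -0.13 without miR652-KD replicates 2 and 4.

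The sequence around the start of the members was searched for the STAT consensus TTCNNNGAA, which reads the same on both strands. RefSeq promoter windows (250 bases before to 50 after the start, GRCm38.p6) were found for 28 of the 36 members. The others were not searched and are not named here. The motif was in the windows of 2 of these 28 genes, Cish and Socs3, and in those of 9.55% of all genes. Both windows are shown as the ones that hold it. In the Cish window (chr9:107296409-107296708, plus strand) the motif, in capitals, occurs 2 times, starting at bases 251 and 262 of the window.
Cish window: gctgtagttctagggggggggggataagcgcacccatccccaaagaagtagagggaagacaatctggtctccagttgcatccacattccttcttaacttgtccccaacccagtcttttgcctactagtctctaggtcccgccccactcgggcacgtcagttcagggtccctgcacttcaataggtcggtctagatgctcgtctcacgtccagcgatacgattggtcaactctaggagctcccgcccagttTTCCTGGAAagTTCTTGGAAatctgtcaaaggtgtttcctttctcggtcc
In the Socs3 window (chr11:117969317-117969616, minus strand) it occurs at base 97.
Socs3 window: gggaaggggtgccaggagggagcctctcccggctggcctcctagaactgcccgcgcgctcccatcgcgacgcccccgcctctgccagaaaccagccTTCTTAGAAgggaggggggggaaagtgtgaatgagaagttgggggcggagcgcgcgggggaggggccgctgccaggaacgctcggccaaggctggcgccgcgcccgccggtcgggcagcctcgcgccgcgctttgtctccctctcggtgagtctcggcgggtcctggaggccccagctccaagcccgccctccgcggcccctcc
A match does not show binding, and windows without one say nothing of the factor.

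**Figure D4:**
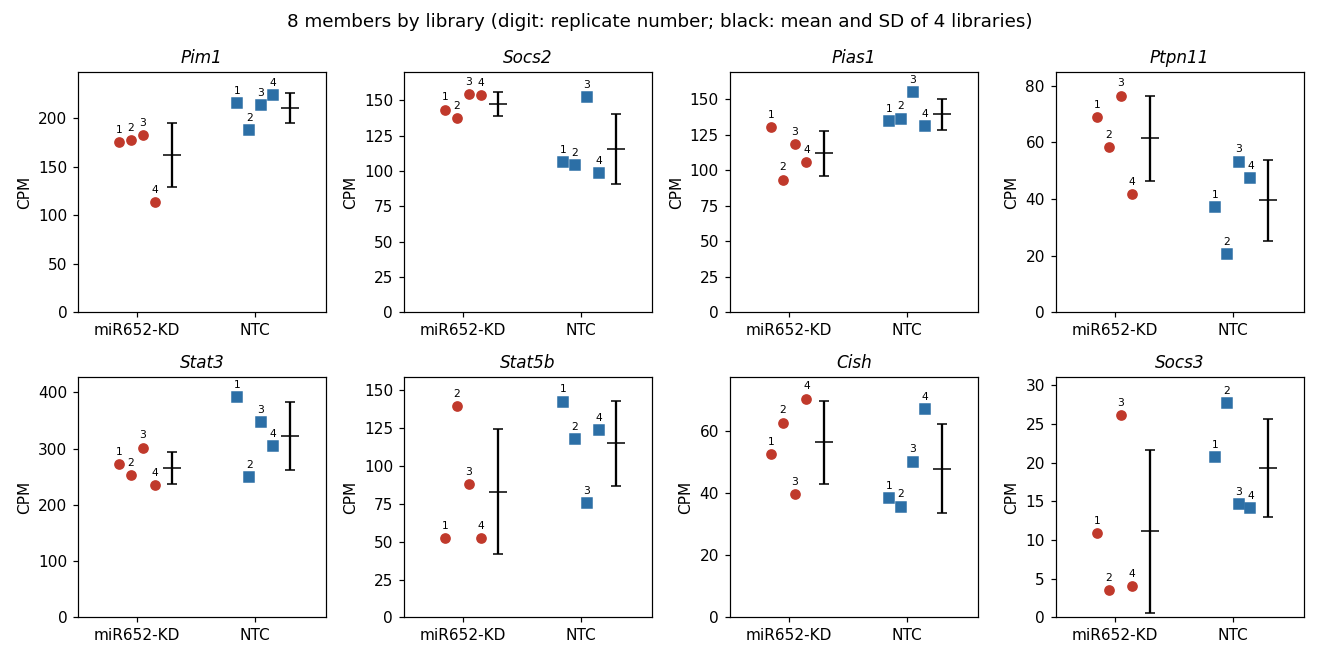
CPM of 8 members in each library (axes from 0), miR652-KD as circles and NTC as squares, with replicate numbers and the mean and SD of 4 libraries in black. Pim1 and Pias1 do not overlap between groups, Socs2 overlaps through NTC replicate 3, and Cish is low where Socs3 is high, as in miR652-KD replicate 3 and NTC replicate 2.

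The PIAS proteins, SUMO ligases first found as inhibitors of activated STATs, were represented by 4 genes, 2 with values above 0 and 2 below. Pias1 had the highest counts of them. It was at 130, 93.4, 118 and 106 CPM in miR652-KD, against 135, 136, 155 and 131 CPM in NTC. The groups did not overlap, by a gap of less than 1 CPM between miR652-KD replicate 1 and NTC replicate 4. The means were 111.9 ± 15.95 CPM in miR652-KD and 139.2 ± 10.80 CPM in NTC (SD, n = 4 each), a log2 difference of -0.31 (SE 0.13, interval -0.61 to -0.01) that did not pass (edgeR adjusted p = 0.832). Pias4 had 51.6 to 88.3 CPM in miR652-KD and 36.7 to 104 CPM in NTC. Over the 8 libraries Pias3 had the widest range relative to its level, at 9.13, 19.2, 30.4 and 38.3 CPM in miR652-KD, against 55.7, 23.8, 23.2 and 25.4 CPM in NTC. Within NTC, Pias4 varied somewhat more, with a coefficient of variation of 52.6% against 49.4%. The log2 difference of Pias3, -0.39, became -0.70 when miR652-KD replicate 4 was left out, and was 0.00 to 2 decimals without NTC replicate 1. Pias2 had 19.4 to 31.3 CPM in miR652-KD and 22.9 to 30.8 CPM in NTC.

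The log2 differences of all 4 phosphatase genes were above 0, with a median of 0.21 and 0 past the threshold, and that of Ptpn6, 0.02, was below 0 without miR652-KD replicate 3 or NTC replicate 2. Ptpn6 was the most even, at 285, 296, 327 and 281 CPM in miR652-KD, against 319, 257, 293 and 312 CPM in NTC, and its interval ran from -0.19 to 0.22. An antisense gene, Gm20531, shares 6.96% of its exon bases. Ptpn11 encodes SHP-2, which, unlike SHP-1, mostly promotes growth factor signalling through the RAS pathway. It had the highest log2 difference of the 36 members, and its library values are given for that reason. It was at 69.1, 58.5, 76.6 and 41.7 CPM in miR652-KD, against 37.3, 20.4, 53.3 and 47.4 CPM in NTC. Replicates 1 to 3 of miR652-KD stood above all NTC libraries, and replicate 4 fell between NTC replicates 1 and 4. The log2 difference was 0.64 (SE 0.30, interval -0.04 to 1.32) and did not pass (edgeR adjusted p = 0.853). Leaving out single libraries gave 0.43 to 0.82, and it was 1.11 without NTC replicates 3 and 4, the libraries with the high Ngp level. Ptpn1, whose product PTP1B acts on JAK2 and TYK2, had 90.7 to 127 CPM in miR652-KD and 87.9 to 108 CPM in NTC. Ptpn2, whose product TC-PTP acts on JAK1, JAK3 and STATs, had 61.6 to 106 CPM in miR652-KD and 49.6 to 80.8 CPM in NTC.

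The 7 adaptor and ubiquitin ligase genes had 4 values above 0 and 3 below. Grb2, the adaptor that links phosphorylated receptors to SOS and RAS, led them with 103.83, 100.01, 139.03 and 115.36 CPM in miR652-KD, against 133.38, 89.744, 79.935 and 100.03 CPM in NTC, interleaved and with a log2 difference of 0.19 (SE 0.17). Sh2b3, known as LNK, is an adaptor that restrains JAK2 signalling in HSCs. It had 55.1, 47.3, 31.2 and 79.0 CPM in miR652-KD, against 93.6, 23.8, 9.90 and 25.4 CPM in NTC. All miR652-KD libraries lay above NTC replicates 2 to 4, and NTC replicate 1 lay above all others. The log2 difference was 0.50 (SE 0.58, edgeR adjusted p = 0.995). Without NTC replicate 1 it was 1.43, without NTC replicate 3 it was 0.18, and without NTC replicates 3 and 4 it was -0.11, so its direction changed with the libraries used.

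Sh2b1, an activator of JAK2, had 66.9 to 123 CPM in miR652-KD and 40.9 to 141 CPM in NTC. Sh2b2 had 141, 66, 10 and 167 counts in miR652-KD, against 29, 42, 4 and 173 counts in NTC, with replicate 3 the lowest in each group. Its log2 difference of 0.49 had an SE of 1.13. Cbl, a ubiquitin ligase for activated receptors, had 56.6 to 86.1 CPM in miR652-KD and 62.6 to 107 CPM in NTC, and its relative Cblb had 15.6 to 31.3 CPM and 11.2 to 32.7 CPM. Gab2, a scaffold that binds SHP-2, had 16.8, 27.3, 8.60 and 31.6 CPM in miR652-KD, against 43.7, 35.2, 12.4 and 37.0 CPM in NTC, a log2 difference of -0.60 with an SE of 0.47. Replicate 3 was the lowest within both groups, and without miR652-KD replicate 3 the difference was -0.33.

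The PIM genes encode serine/threonine kinases that need no activation step, so that their amount follows their transcription and turnover. Pim1 had 175, 177, 183 and 113 CPM in miR652-KD, against 216, 188, 213 and 224 CPM in NTC. All 4 miR652-KD values lay below all 4 NTC values, and replicate 4 was the farthest below. The means were 162 ± 32.8 CPM in miR652-KD and 210 ± 15.6 CPM in NTC (SD, n = 4 each). The log2 difference of -0.37 (SE 0.15, interval -0.71 to -0.03) did not pass over all genes (edgeR adjusted p = 0.826). It was -0.24 without miR652-KD replicate 4, a move of over 1.5 times, and -0.31 without NTC replicates 3 and 4. Antisense to Pim1, Gm26885 shares 14.5% of the Pim1 exon bases, so the counts of Pim1 may be incomplete if strand was not used. Pim2 had 80.3, 108, 152 and 117 CPM in miR652-KD, against 148, 96.0, 140 and 165 CPM in NTC, with overlap. Pim3 had 36.04, 63.90, 48.05 and 60.77 CPM in miR652-KD, against 81.6, 19.9, 26.1 and 27.6 CPM in NTC. As for Sh2b3, NTC replicate 1 was the highest library for Pim3 and the other 3 NTC libraries lay below all miR652-KD libraries. The log2 difference of Pim3 was 0.45 (SE 0.42), and it was 1.08 without NTC replicate 1, 0.24 without NTC replicate 2 and 0.07 without NTC replicates 3 and 4.

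NTC replicate 1 held the highest value of the 8 libraries for 10 of the 36 members (27.8%), against 16.95% of all genes tested, and NTC replicate 4 for 9 members (25.0%), against 14.2%. NTC replicate 1 also had 16.94% of its reads outside annotated genes, against 9.69% to 11.35% in the other 7 libraries. The part of this in the levels above was not tested. The spread between replicates was somewhat smaller for the members than for genes in general. The median coefficient of variation was 23.2% against 29.5% for all genes tested in miR652-KD, and 26.7% against 31.1% in NTC. Members and all genes were not matched for level. A filter of at least 5 CPM in 4 libraries kept 35 of the 36 members and 11200 of the 14360 genes. The part of level in the spread was not tested. The steadiest members over both groups together were Jak1, with 6.96% in miR652-KD and 5.35% in NTC, and Ptpn6, with 6.99% and 9.42%. Within miR652-KD alone Socs2 was lower, at 5.69%, but it had 21.6% in NTC. Within NTC alone Pim1 (7.45%) and Pias1 (7.76%) lay below Ptpn6, but they had 20.2% and 14.25% in miR652-KD. For 25 of the 36 members the 95% interval lay within 1 log2 unit on both sides of 0.

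Other genes of the pathway were read from 3 lists. Of 33 genes for JAK-coupled receptor chains, 24 could be tested, 10 with values above 0 and 14 below (median -0.09), and 0 passed the adjusted threshold. Of the 24, 3 had an unadjusted p below 0.05 (12.5%, against 5.99% of all genes tested) and 3 did not overlap between groups (12.5%, against 4.5%), and Il10rb and Ifngr2 were in both sets. Il10rb, the shared chain of interleukin-10 and interferon lambda receptors, had 35.0, 35.6, 16.6 and 31.5 CPM in miR652-KD, against 52.1, 56.7, 42.7 and 39.6 CPM in NTC (log2 difference -0.68, SE 0.27, edgeR adjusted p = 0.811). Ifngr2, the signalling chain of the interferon gamma receptor, had 46.1, 43.2, 29.7 and 30.2 CPM in miR652-KD, against 20.6, 28.1, 26.4 and 25.1 CPM in NTC (log2 difference 0.58, SE 0.24, adjusted p = 0.832). The 9 receptor genes that could not be tested were at most at 5.95 CPM in any library, and Osmr, Lepr, Il2ra and Il2rb were at 0 in every library.

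Of 23 other genes known as STAT targets, 21 could be tested, 11 above 0 and 10 below (median 0.01), with 0 past the threshold. Of these 21, 3 had an unadjusted p below 0.05 (14.3%, against 5.99% of all genes tested) and 1 did not overlap (4.76%, against 4.5%). Ccnd2, the cyclin D2 gene, had 862, 973, 990 and 876 CPM in miR652-KD, against 797, 662, 643 and 668 CPM in NTC, without overlap (log2 difference 0.42, SE 0.08, edgeR adjusted p = 0.438). Of 25 further adaptors and regulators 23 could be tested, 12 above 0 and 11 below (median 0.01), with 0 past the threshold. Of these 23, 3 had an unadjusted p below 0.05 (13.04%, against 5.99% of all genes tested) and 1 did not overlap (4.348%, against 4.5%). Stam, an adaptor for JAK2 and JAK3, had 19.1, 42.9, 19.7 and 32.0 CPM in miR652-KD, against 45.1, 47.9, 49.2 and 45.7 CPM in NTC, without overlap (log2 difference -0.72, SE 0.28, adjusted p = 0.803).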

How the data were processed

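Bulk RNA-seq of 4 miR652-KD and 4 NTC libraries was used. HISAT2 2.1.0, HTSeq 0.11.2, DESeq2 and mm10 are named in the submitters' processing notes; no source used here gives the annotation release or the strand setting. The authors deposited raw counts, whole numbers per gene, 1 table per library. Its 5 summary lines were left out; reads outside genes were 9.69% to 16.94% and ambiguous reads 8.94% to 12.28%. Identifiers were matched without version to GENCODE M21 (55394 of 55487 found). Without molecular identifiers, counts include amplified copies.

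CPM are relative to all gene rows, and TPM use the union of annotated exons. Groups were compared with edgeR 4.0.16 in R 4.3.3: TMM scaling, filterByExpr defaults (count 10, total 15), robust quasi-likelihood fit with group as the only term, Benjamini-Hochberg adjustment over 14360 genes. SE was taken as |log2 difference| over the root of F. Alternatives were other scalings, filters, DESeq2, limma-voom, a replicate block and leaving out libraries. Replicates correlated at 0.896 to 0.925 across genes, and none were near-identical.

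The members and lists were chosen with earlier results of these data known. By rule, library values are given for members with an unadjusted p below 0.05 or no overlap and for the member of highest mean CPM in each role, and pathway genes are named where both of the first criteria hold. Library values of other members were added after they were seen. An item on the marker and receptor lists is not reported here, and their counts and sums leave it out.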

Additional observations from a re-analysis of the deposited data

Results flagged for a closer look

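In groups of 4 libraries, 1 library stood far from the other 3 in the following cases, by Dixon's test at the 95% level. Chance alone gives about 1 such case in 20 groups, and 72 groups of member levels were looked at. Pim1 in miR652-KD was at 113 CPM in replicate 4, below 175 to 183 CPM in the others, and Pias2 in miR652-KD was at 19.4 CPM in replicate 3, below 29.4 to 31.3 CPM. Socs2 in NTC was at 153 CPM in replicate 3, above 98.3 to 107 CPM. NTC replicate 1 was high for Pias3 (55.7 CPM against 23.2 to 25.4 CPM), Ptpn1 (108 CPM against 87.9 to 90.4 CPM) and Pim3 (81.6 CPM against 19.9 to 27.6 CPM), and for its share of reads outside genes (16.94% against 10.39% to 11.35%).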

How the results depend on the processing

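Under 17 alternatives, 0 of 36 members passed the adjusted threshold, with a lowest adjusted p of 0.507; 15 to 20 members had higher fitted levels, and their median log2 difference ran from -0.07 to 0.05. Over all genes, DESeq2 called 61 genes, limma-voom 1, the fit with a replicate block 0 and the fit without NTC replicates 3 and 4 together 0, against 6; leaving out single libraries gave 0 to 0 (789 to 992 at an unadjusted p below 0.05). The cause was not tested. Same-numbered replicates did not deviate together across genes (r from -0.033 to -0.010). A pairing with little effect on most genes would give such values too, so they do not settle whether the numbers pair the libraries. The replicate block changed no member's call. The log2 difference of 24 members kept its sign in all alternatives run. Tyk2 was -0.19 with limma-voom, -0.088 with the replicate block and -0.31 without NTC replicates 3 and 4. Cblb was 0.014 with upper-quartile scaling, 0.11 with limma-voom, 0.0018 with no filter, 0.0034 with at least 5 CPM in 4 libraries and 0.099 with the replicate block. Pias2 was -0.012 with limma-voom. Without NTC replicates 3 and 4, Pias2 was -0.13, Jak3 -0.015, Stat4 0.00026, Stat5a -0.10 and Sh2b3 -0.11. Leaving out single libraries, ranges were -0.080 to 0.0053 for Jak1, -0.35 to 0.028 for Jak2, -0.019 to 0.27 for Jak3, -0.31 to 0.39 for Tyk2, -0.30 to 0.051 for Stat4, -0.057 to 0.26 for Stat5a, -0.091 to 0.43 for Socs1, -0.054 to 0.17 for Pias2, -0.031 to 0.052 for Ptpn6, -0.22 to 0.30 for Sh2b1 and -0.22 to 0.26 for Cblb. With the longest transcript as length, 9 of the 10 highest members were shared. Sh2b2 was not tested under the 5 CPM filter.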
